A study of Marmota monax with 20 samples.

Results

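The 150 genes described here were those of the Eastern woodchuck whose read counts stood highest in spleen relative to every other organ sampled. They were chosen from 30973 genes by a rule on the counts themselves. Counts were divided by a size factor for each library, the median ratio to the geometric mean over the 16970 genes found in all libraries, which gave the normalised count used throughout. The score of a gene was its lowest normalised count in 5 spleens over its highest in the other 15 libraries, with 5 added to the latter. A score of at least 4, at least 200 normalised counts in every spleen and a ratio of at most 5 between the highest and the lowest spleen were required. These limits were met by 237 genes, of which the 150 with the highest scores were taken. Levels in spleen against the other organs therefore chose these genes and are given below as a description, without a test.

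The libraries came from 6 adult woodchucks without woodchuck hepatitis virus infection, and no treatment is given for them. Spleen and kidney were available from 2 females (F6849 and F9150) and 3 males (M4046, M4075 and M4091), and liver from these and the female F6852. Lung and heart were taken from F6849 and thymus and pancreas from F9150, 1 library each, so that these 4 organs had no replicate. The sex is read from the letter in the animal's name, the study having used animals of both sexes, and no age beyond adult is given. Poly(A) RNA of whole organ pieces was sequenced, and in such bulk samples fewer cells of a type and less RNA per cell cannot be told apart. The total count ranged from 59487004 to 123267969 in spleen, 63682684 to 107167963 in kidney and 82874390 to 140252555 in liver, and from 67284576 to 104383997 in the other organs. The median member had 5327 to 7572 counts in a spleen library, 45 to 342.5 in a kidney, 64 to 175 in a liver and 13 in the pancreas. The table pairs its identifiers with no gene names, and none of them matched the reference gene table. The members are therefore given by identifier, what each encodes is not stated, and the organ could not be checked against known marker genes. By correlation of all genes, the nearest library to each of the 5 spleens was another spleen.

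The spleen filters the blood and is the largest secondary lymphoid organ. Its red pulp is rich in macrophages that remove aged red cells, and its white pulp holds B and T lymphocytes around the arterioles. The thymus is also lymphoid but is made up mainly of developing T cells, while liver, kidney and lung hold blood and resident macrophages beside their own cell types. The identifiers alone do not say in which of these cells a member is expressed.

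Scores ran from 5.69 to 43.1 with a median of 7.47. Only 28 of the 150 genes reached a score of 10 and 5 reached 20, while 95 stayed under 8, so that the list was a continuous range with a few genes far above the rest. The highest score was that of Monax4B035337. It was measured at 9064, 6622, 3138, 8151 and 3344 normalised counts in the spleens of F6849, F9150, M4046, M4075 and M4091, and at most at 67.9 elsewhere, in the liver of M4046. Its normalised counts in lung, heart, thymus and pancreas were 2.45 to 18.6. Next was Monax4B000113, with 802, 676, 421, 499 and 247 normalised counts in the spleens in the same order. Over the other 15 libraries together it had only 6 counts, 2 each in the heart and in the kidneys of M4046 and M4091, and it was the only member with fewer than 10 counts in each of them. For both genes the lowest spleen was far above every other library, although the spleens themselves differed by up to 2.89 times for the former and 3.25 times for the latter.

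The boundary of the list was not a gap. The last genes inside were Monax4B000270 with a score of 5.75 and Monax4B020760 with 5.69, and the first outside were Monax4B037949 with 5.67 and Monax4B040540 with 5.66.

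**Figure D1:**
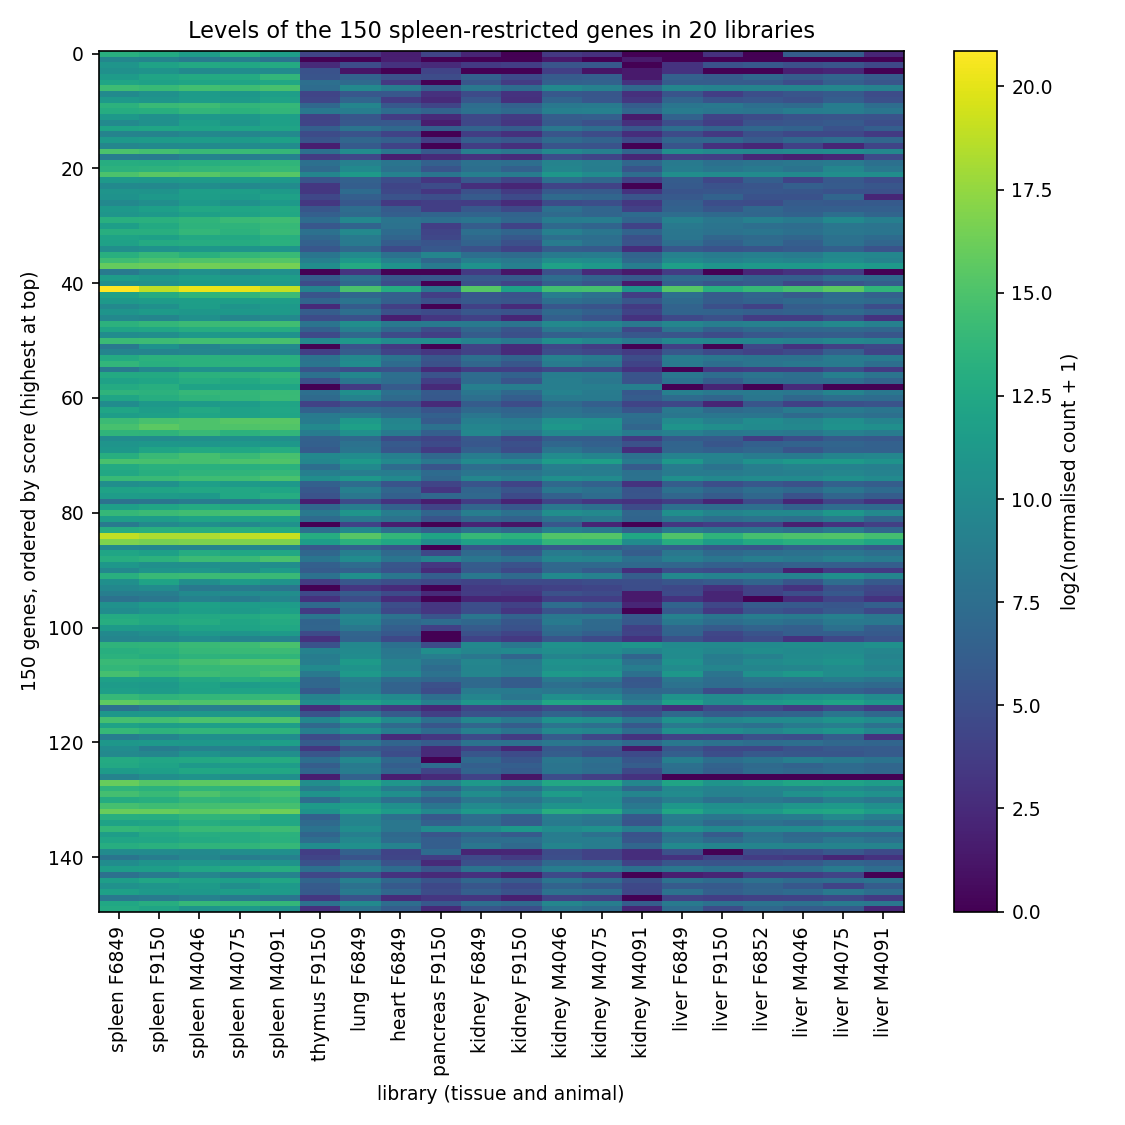
Colour shows log2(normalised count + 1) of the 150 genes (rows, ordered by score) in the 20 libraries (columns, by tissue and animal). Within every row the 5 spleen columns are brighter than all other columns, although rows differ widely in level. Most rows stay above 0 in the other organs, with 124 of the 150 genes found in all 20 libraries.

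Most members were not absent from the other organs. At least 1 count was found in all 20 libraries for 124 genes (82.7%) and at least 10 counts for 81 (54.0%). In every liver library at least 10 counts were found for 115 genes, and in every kidney library for 109. Only 2 genes had 0 counts in all 6 livers, and no gene had 0 counts in all 5 kidneys. Together the 150 genes held 5.98%, 3.72%, 5.51%, 5.22% and 5.02% of the counts in the spleens of F6849, F9150, M4046, M4075 and M4091 (mean 5.09% ± 0.845, SD, n = 5). In kidney their share averaged 0.164% ± 0.107 (SD, n = 5), from 0.0420% to 0.282%. In liver the mean was 0.0718% ± 0.0246 (SD, n = 6), with a range of 0.0409% to 0.106%. In the single libraries it was 0.345% in lung, 0.0742% in heart, 0.0586% in thymus and 0.0114% in pancreas.

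A single gene made up much of the share in spleen. Monax4B009745 had the highest mean level among the members, and gene lengths were not given, so that this is a statement on reads and not on transcripts. Its normalised count was 1910028 in the spleen of F6849, 440802 in F9150, 1216727 in M4046, 1131551 in M4075 and 501515 in M4091. These 5 values spanned 4.33 times and did not divide by sex. F6849, M4046 and M4075 were also the 3 highest of the 5 animals in kidney, at 43228, 23303 and 26141 against 3813 in F9150 and 1792 in M4091. The same 3 were the highest in liver, at 41997, 27277 and 48776 against 9253 in F9150 and 13077 in M4091. Lung held 30470 normalised counts, heart 7882, thymus 699 and pancreas 298. It held 52.2% of all counts of the members in the spleen of F6849 and 21.5% in that of F9150. Without it, the members held 2.86% of the counts in F6849, 2.92% in F9150, 3.32% in M4046 and 3.31% in M4075. In M4091, where Monax4B045283 had more counts, the members held 4.05% without Monax4B045283, and so no less without Monax4B009745. The spleen of F6849 thus moved from the highest to the lowest. The next in level was Monax4B045283, at 476779, 315078, 316706, 442829 and 552446 normalised counts in the same order. It was steadier, the highest spleen being 1.75 times the lowest, and it was the leading member in the spleen of M4091.

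Outside spleen, lung came closest. Each member's level was expressed as a percentage of its mean over the 5 spleens, and the median over the 150 genes was 7.72% in lung. It was 2.03% in heart, 1.97% in thymus and 0.612% in pancreas. The livers lay between 2.43% and 4.53%, and the kidneys were spread more widely, from 0.761% to 5.52%. Lung was the highest of the 15 other libraries for 84 of the 150 genes (56.0%). Among the 11643 genes that met the same minimum and ratio limit in spleen, whatever their level elsewhere, lung was the highest for 9.31%. The kidney of M4046 was the highest for 26 members and the liver of M4075 for 18. Thymus was the highest for only 3 members (2.00%), against 12.9% of the 11643 genes. For 144 members lung was above thymus, which held for 47.4% of the 11643 genes. With 1 library of each from different animals, a difference between the organs and one between the animals cannot be told apart. The rule limited the level of a member in all 15 other libraries, while the 11643 genes had no such limit. Genes high in thymus or lung as well as in spleen could not enter the list, so these shares only describe it.

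**Figure D2:**
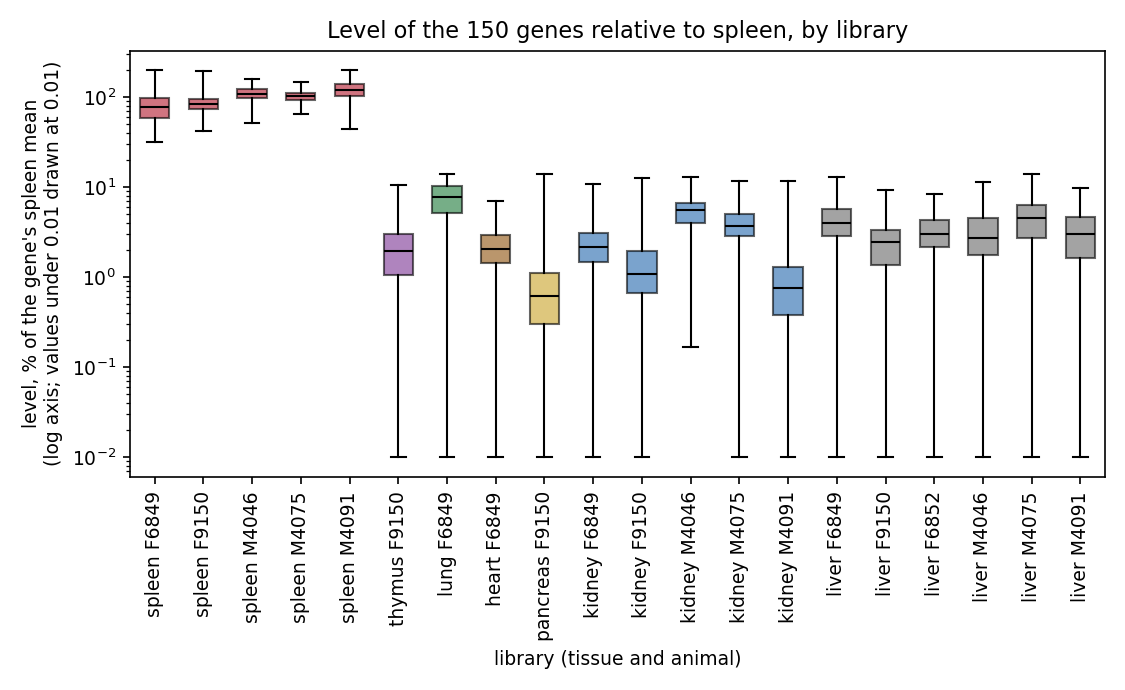
Boxes show the level of the 150 genes in each library as a percentage of the gene's spleen mean (log axis; box from the first to the third quartile, line at the median, whiskers to the lowest and highest gene, with values of 0 drawn at the lower limit named on the axis). Lung has the highest median outside spleen at 7.72%, and the 5 kidneys run from 0.761% to 5.52%.

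The members closest to spleen level in thymus were Monax4B003255 and Monax4B047128. Monax4B003255 had 1110 normalised counts in thymus, 13.4% of its lowest spleen, and 1397 in lung. Its spleens ranged from 8295 to 15225, its livers from 629 to 949 and its kidneys from 116 to 691. Monax4B047128 had 2705 in thymus, 12.7% of its lowest spleen, and 3541 in lung, with spleens from 21356 to 27565. Both were thus higher in lung than in thymus. By the same measure Monax4B000270 and Monax4B026808 were closest in lung, at 17.3% and 17.0% of their lowest spleen. The former had 945 normalised counts in lung against 230 in thymus, and the latter 385 against 60.4.

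Lanes of the sequencer were shared between spleens and 9 of the 15 other libraries. In these 9 the median level of the members was 0.612% to 5.52% of spleen. In the 6 that shared no lane with a spleen it was 1.10% to 7.72%, the latter in lung. The libraries with and without a shared lane differed in organ, and whether sharing a lane changed the levels was not tested.

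Because the rule used all 20 libraries, the choice was repeated without all libraries of 1 animal, and the left-out animal was then examined. The list chosen without M4075 shared 141 genes with the full list, and in M4075 itself the spleen was at least 4 times the higher of liver and kidney (5 added) for all 150 chosen genes. This limit was reached by 8.26% of all 13258 genes with at least 200 normalised counts in that spleen. For M4046 it was reached by 149 of 150 chosen genes (8.73% of all such genes) and for M4091 by 148 (9.80%). For F9150, where thymus and pancreas were left out as well, 146 reached it (6.51%). For F6849, where lung and heart were left out, it was 140 (5.59%) and the chosen list shared only 102 genes with the full one. Spleen was the highest organ of the left-out animal for 148 to 150 of the genes in each case. The median ratio in the left-out animal was 8.38 for F6849, whose lung was among the organs compared, and 19.1 to 36.0 for the others.

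Among the spleens, the members varied more than most genes of like limits. The highest spleen was 1.95 times the lowest for the median member, with a range of 1.11 to 4.83, against a median of 1.53 over the 11643 genes with the same minimum and ratio limit. The rule allowed no more than 5 times, so larger spreads could not occur. The steadiest members were Monax4B015714, at 4389, 4853, 4358, 4402 and 4598 normalised counts in F6849, F9150, M4046, M4075 and M4091, and Monax4B031033, at 687, 697, 777, 731 and 675. At the other end was Monax4B018985, at 4009, 7190, 13114, 13540 and 19376. Monax4B040362 ran in the same direction, at 2872, 4609, 6567, 6861 and 13700. In both of the latter the spleens of the 2 females were the lowest and that of M4091 was the highest.

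That order was common in the list. The spleen of M4091 was the highest for 78 members (29.2% of the 11643 genes), and that of F6849 was the lowest for 77 (25.7%). The spleen of F9150 was the lowest for 44 members (22.3% of the 11643 genes) and that of M4075 for 4 (15.4%). By the median level, the 5 spleens stood at 77.1% (F6849), 82.7% (F9150), 108% (M4046), 103% (M4075) and 120% (M4091) of the members' means. Every male lay above both females for 85 of the 150 genes (56.7%), against a background of 22.5% of the 19735 genes tested and 24.2% of the 11643 genes. Both females lay above every male for 8 genes, against 19.0% and 18.7%.

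No single gene passed the test for this difference. Comparing the 2 female with the 3 male spleens, the quasi-likelihood test of edgeR found 0 members and 0 of all 19735 genes at a false discovery rate of 0.05. At an unadjusted p under 0.05, 62 members were higher in males and 7 higher in females, against 8.39% and 12.7% of all genes, and 8.07% and 12.5% of the 11643 genes. DESeq2 called 39 members higher in males and 6 higher in females, against 4.52% and 7.41% of the 19967 genes to which it gave an adjusted p. The log2 fold change of females over males had a median of -0.38 over the members and 0.01 over all genes, and it was negative for 122 of the 150. The rule itself used these 5 spleen values, through the lowest spleen and the limit on their ratio. The 11643 genes met the same minimum and ratio limit but had no limit on the score. The shares of members by sex, here and in the preceding paragraph, are therefore not free of the choice of genes. The members share the same 5 libraries and are not replicates of the sexes, and with 2 females and 3 males sex cannot be told apart from other differences between these animals. No lane held more than 1 spleen, so that among the spleens lanes cannot be told apart from animals either, and the spleen of F6849 had the largest total count.

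The members with the widest separation ran in both directions. Monax4B020760 was higher in females, at 6769 and 4557 normalised counts, than in males, at 1828, 2351 and 1500. Its log2 fold change was 1.63 (SE 0.25, adjusted p = 0.0854 in edgeR). Monax4B035352 was at 788 and 1084 in the females and at 347, 373 and 264 in the males (log2 fold change 1.56, adjusted p = 0.0857, edgeR). On the male side, Monax4B018985, given above, had a log2 fold change of -1.40 (SE 0.32, adjusted p = 0.104 in edgeR). Monax4B006418 was at 3374 and 6406 in the females and at 11389, 12403 and 15904 in the males (log2 fold change -1.38, adjusted p = 0.105, edgeR). The female and male spleens did not overlap for any of these 4 genes, which were named for that, and none passed the adjusted threshold in this fit. In DESeq2 all 4 passed it, with adjusted p of 1.84e-05, 1.94e-05, 0.00112 and 0.00135 in the order given. Without the spleen of F9150, Monax4B020760, Monax4B018985 and Monax4B006418 passed it in edgeR (adjusted p = 0.0346, 0.0372 and 0.0299), and Monax4B020760 also did without the filter on low counts (0.0499). Over the whole list, 12 members passed in edgeR without that spleen, 10 of them higher in males, against 3.22% of all genes, of which 462 were higher in females and 198 in males. The 16 libraries of spleen, liver and kidney fitted together gave 0 members, against 3.69% of all genes.

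**Figure D3:**
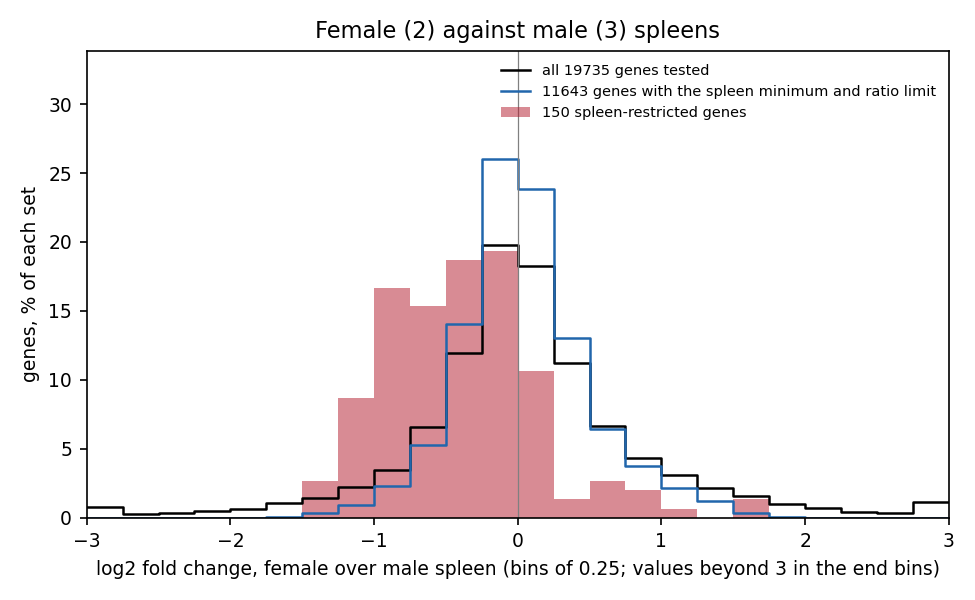
Bars show the share of the 150 genes in each bin of log2 fold change of female over male spleens (2 against 3 libraries, edgeR), and lines show the same for all 19735 genes tested and for the 11643 genes with the same limits in spleen. The bars are shifted to the left, with a median of -0.38 against 0.01 for all genes.

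In the kidneys, the members moved together. The kidney of M4046 was the highest of the 5 for 117 of the 150 genes (78.0%), against 17.6% of all 20764 genes tested, and the kidney of M4091 was the lowest for 113 (75.3%), against 25.5%. The reverse was rare, the kidney of M4046 being the lowest for 0 members (16.6% of all genes) and that of M4091 the highest for 8 (24.3%). M4046 lay above M4091 for 142 members (94.7%), against 49.9% of all genes. The kidneys of F6849, M4046 and M4075 each lay above those of F9150 and M4091 for 130 members (86.7%), against 13.9% of all genes. This grouping was named after the values were seen. Each side of it held both sexes, and the kidneys of F6849 and F9150, on opposite sides, were run in the same lane. Whether sex, lane or other differences between the animals had a part in it was not tested. The median member had 327 counts in the kidney of M4046 and 45 in that of M4091. The highest kidney was at least 5 times the lowest for 113 members (75.3%, with 1 added to each normalised count), against 13.1% of all genes, and the median ratio was 7.09, against 1.69. The part of counting error in these ratios was not tested. The members share the same 5 kidney libraries and are not replicates of the animals. The rule also bounded every kidney value of a member, while the 20764 genes had no such bound. These shares therefore only describe the list.

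The order of the kidneys was not that of the spleens. M4091 had the highest median level in spleen and the lowest in kidney, so that its spleen exceeded its kidney by a median of 144 times over the members (1 added to each normalised count). The ratio was 72.9 in F9150, 33.9 in F6849, 27.1 in M4075 and 20.4 in M4046. Between spleen and liver it was closer among the animals, at 18.6 in F6849, 36.5 in F9150, 40.0 in M4046, 22.6 in M4075 and 38.8 in M4091.

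A minority of members did not follow this order. Beside the 8 genes highest in the kidney of M4091, 1 gene was highest in that of F9150 (21.6% of all genes). Monax4B014388 was at 515, 450, 482, 489 and 521 normalised counts in the kidneys of F6849, F9150, M4046, M4075 and M4091, and was thus level where most members changed several times. The genes Monax4B009745 and Monax4B045283, with the highest spleen levels, did follow the split, at 43228, 3813, 23303, 26141 and 1792 for the former and at 15970, 10671, 36804, 40858 and 5387 for the latter.

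**Figure D4:**
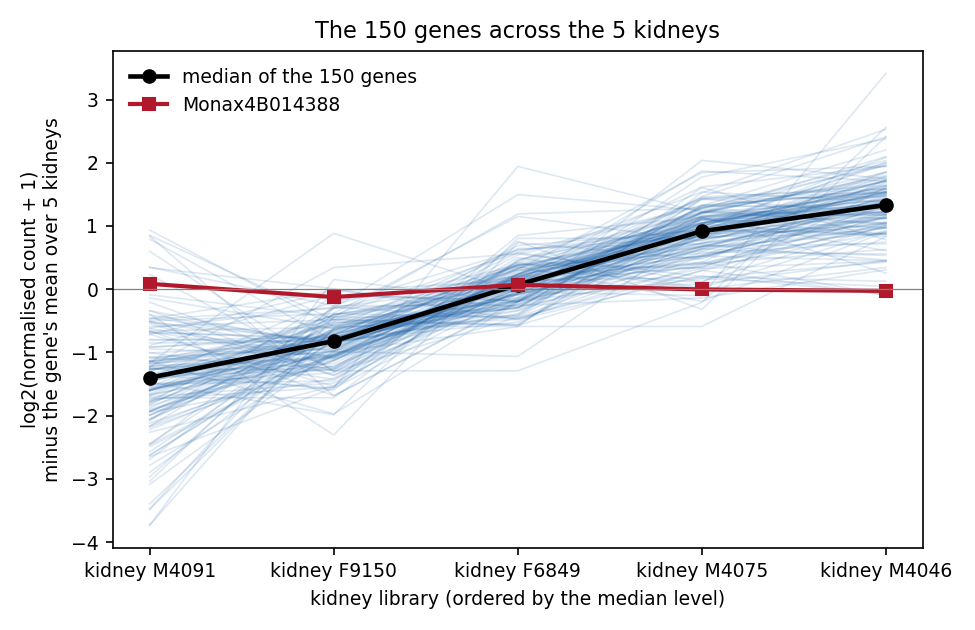
Each thin line is 1 of the 150 genes across the 5 kidneys, as log2(normalised count + 1) minus the gene's mean over the kidneys, with the median in black and Monax4B014388 in red. Most lines rise from M4091 and F9150 to M4075 and M4046, and 130 genes have F6849, M4046 and M4075 above F9150 and M4091.

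The livers had another order. The liver of M4075 was the highest of the 6 for 75 members, against 17.1% of all genes, and that of F6849 for 43 (28.7%, against 16.9%), so that 1 of these animals was the highest for 118 (78.7%, against 34.0%). That of F9150 was the lowest for 76 (50.7%, against 23.1%), while that of M4091 was the lowest for 19 (12.7%, against 13.5%). The liver of M4046, whose kidney was the highest for most members, was the highest for only 6 members, against 19.0% of all genes. Its median level of 2.71% of spleen was below the 3.00% of M4091, so that the grouping of the kidneys did not hold in liver. The highest liver was at least 2 times the lowest for 115 members (76.7%, against 52.4%) but at least 5 times the lowest for only 25 members (16.7%), near the 19.3% of all genes. F9150 had the lowest median level of the livers, at 2.43% of spleen. The members share the same 6 liver libraries, and the rule bounded their liver values as well. These shares therefore likewise only describe the list.

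Liver and kidney were then compared, a contrast that holds no spleen library. By its limit on the highest of the 15 other values, the rule bounded every liver and kidney value of a member. Genes high in liver or kidney relative to spleen could not be members, while all 20764 genes had no such bound. The shares of members called are therefore not free of the choice of genes. With liver, kidney and spleen fitted together (16 libraries), edgeR called 25 members at a false discovery rate of 0.05, which is 16.7% of the 150 genes against 63.0% of all 20764 genes tested. Of these, 21 were higher in liver (14.0%, against 32.1%) and 4 higher in kidney (2.67%, against 30.9%). All 150 passed the filter on low counts through spleen, and 139 of them passed it with the liver and kidney libraries alone. The log2 fold change of liver over kidney had a median of 0.31 over the members and 0.03 over all genes. Every liver lay above every kidney for 3 members (22.4% of all genes), and every kidney above every liver for 2 (25.1%).

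Higher in liver were, first, Monax4B044358 and Monax4B035337. Monax4B044358 was at 57.6, 37.8, 44.9, 77.9, 62.2 and 47.0 normalised counts in the livers of F6849, F9150, F6852, M4046, M4075 and M4091. In the kidneys of F6849, F9150, M4046, M4075 and M4091 it was at 5.85, 3.76, 18.5, 16.8 and 0. The groups did not overlap, with a log2 fold change of 2.64 (SE 0.53, adjusted p = 0.000409 in edgeR). Monax4B035337, the member with the highest score, was at 67.9 and 65.8 in the livers of M4046 and M4075 but at 0 to 6.87 in the other 4, and its kidneys ranged from 0 to 10.1. These groups overlapped, and the log2 fold change of 2.62 (SE 1.04, adjusted p = 0.0378 in edgeR) rested on 2 animals. Like 10 other members, this gene was in the test only through its spleen counts and could not be tested with the liver and kidney libraries alone. Without the liver of M4046 its adjusted p was 0.152 and without that of M4075 0.103 (edgeR), and it also missed 0.05 without the kidney of F6849, F9150 or M4091, in DESeq2 (0.0741), with the lane as a block (0.799) and without composition factors (0.334).

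The members higher in kidney held the largest differences of the list. Monax4B014388, level in all 5 kidneys as given above, had 6 counts over the 6 livers together, in 2 of them. Its log2 fold change of liver over kidney was -8.14 (SE 0.47, adjusted p = 9.54e-10 in edgeR). Its spleens stood at 6965, 8783, 4176, 4291 and 4818, while heart, the highest of the 4 single organs, stood at 63.8 and thymus at 0. This gene was thus found in spleen and, at a lower level, in kidney, and was close to 0 in liver. Monax4B026237 had 0 counts in all 6 livers and 102 counts in the kidneys, at 17.6, 1.25, 30.2, 14.5 and 7.49 normalised counts. Its kidney level was at least 17.6-fold higher, the limit being 3 counts over the 6 livers (adjusted p = 0.000753, edgeR). It passed the filter on low counts only through spleen and was not tested with the liver and kidney libraries alone. Its lung library held 99.2 normalised counts and its spleens 636 to 1702.

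**Figure D5:**
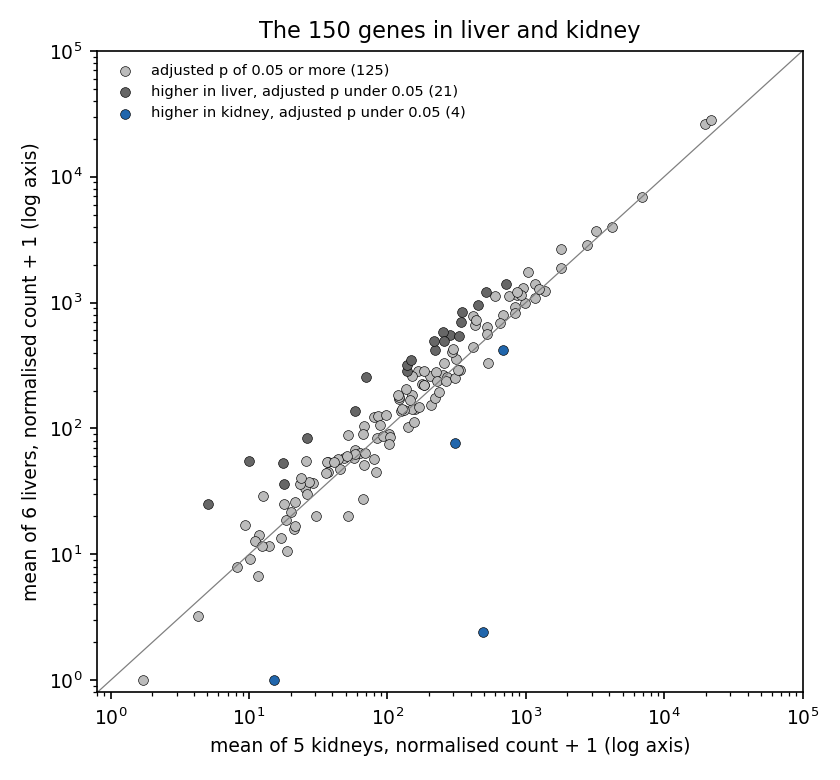
Each point is 1 of the 150 genes, by its mean normalised count (plus 1) in 5 kidneys and 6 livers, on log axes with the line of equal levels. Most points lie along the line, 21 genes are called higher in liver and 4 higher in kidney, and Monax4B014388 lies far below the line at about 1.41 in liver and 491 in kidney before 1 was added.

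The count of members called between liver and kidney changed with 1 library left out, with the lane as a block and with the scaling. With the lane as a block, 7 members were called (4 higher in liver), against 48.6% of all genes, which was 63.0% without the block. The block adds a term for each further lane and leaves less to measure the spread. Lost power and an effect of the lane cannot be told apart here. Without the kidney of M4046, in which most members were highest, 47 members were called, 44 of them higher in liver, against 60.2% of all genes called and 30.7% higher in liver. With library sizes alone, which move the median of all genes from 0.03 to -1.52, 102 members were called and all of them were lower in liver, against 85.4% of all genes called, 16126 of 17741 of them lower in liver. Monax4B044358 was not called there (adjusted p = 0.0549 in edgeR). Relative to that shift the median of the members, at -1.25, still lay above it.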

How the data were processed

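RNA-seq libraries of 7 organs from 6 woodchucks (20 libraries) were available as 1 table of counts. Mapping by the authors used gem-tools rna-mapper, and gemtools then counted reads over the Monax4B annotation. The deposited values are these counts per gene, without normalization. The submitters' processing notes also name CASAVA 1.8.4 and FastQC 0.11.5. Even numbers made up 85.1% to 86.5% of the counts above 0 in a library, so that both mates of a pair seem to have been counted, and a floor of 3 counts may then stand for fewer fragments. How reads shared by similar genes were assigned is not given in the sources used here.

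The members, lists and tests were chosen with earlier results of these data known. Tests used R 4.3.3 with edgeR 4.0.16 (filterByExpr, TMM factors, robust quasi-likelihood fit, Benjamini-Hochberg adjustment over all genes tested), and DESeq2 1.42.0 was an alternative. Python 3.11.15 and matplotlib 3.10.9 served for the figures. The edgeR test was also run on counts simulated with known changes in a small set of genes. That setting is unlike these data, and the run does not bear on the calls given here. Liver, kidney and spleen libraries of an animal come from the same individual and are paired by origin. After removal of the tissue means, the 15 pairs had correlations of 0.0866 to 0.391. Other alternatives were median-ratio factors, no composition factors, no filter, the animal as a block, other settings of the rule and each library left out. The lane as a block was added after seeing the data. At most 2 identifiers per pattern and direction were named: by score, mean spleen CPM, place at the end of the list, spleen ratio, log2 fold change by sex (without overlap, since none passed the threshold) and between liver and kidney, and level in thymus and lung relative to the lowest spleen. P-values measure the spread between libraries of the same organ or, for sex, between spleens of the same sex. For liver and kidney this spread was estimated together with spleen, except where only the liver and kidney libraries were fitted. The pairing was left out except with the animal as a block. Floors cover counting error only.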

Additional observations from a re-analysis of the deposited data

Results flagged for a closer look

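Sets of 5 or 6 libraries were searched for a value far from the rest. Among 37 sets 1 had such a value, where about 1 in 20 would have by chance. It was the total count of the F6849 spleen, 123267969, when the remaining spleens had 59487004 to 69512327.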

How the results depend on the processing

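The list shared 101 to 148 of its 150 genes with the lists from 10 other settings of the rule, the fewest with liver and kidney as the only other organs (101) and without the lung library (112), and 105 to 147 without each spleen in turn, the fewest without that of F6849. In the left-out animals, a limit of 2 times in place of 4 gave 145 to 150 of 150 genes. It was reached by 10.5% to 17.9% of all genes with at least 200 normalised counts in the left-out spleen. For liver and kidney, 25 members were called (63.0% of all genes). With the lane as a block it was 7 (48.6% of all genes), and with only the liver and kidney libraries 15 of 139 tested (64.5%). Without composition factors it was 102 (85.4% of all genes), with 0 members higher in liver. Of all genes called there, 9.10% were higher in liver, against 51.0% before. Without each library in turn, 19 to 47 members were called (59.5% to 62.6% of all genes). The animal as a replicate block gave 32 (63% of all genes) and changed the side of the threshold for none of the 4 genes named for this contrast. DESeq2 gave 26 (52.9% of the 26536 genes fitted), median-ratio factors 25 (62.5% of all genes) and no filter 24 (51.1%). For female and male spleens, 0 members were called by edgeR, 45 by DESeq2 (9.61% of the 24780 genes fitted), 1 without the filter (0.476%), and 0 to 12 without each spleen in turn, the 12 without F9150 (3.22%). No block could be fitted there, each animal having 1 spleen. The directions of the 8 gene contrasts named for sex and for liver and kidney held in every alternative that tested them. A difference of a few counts in liver, kidney or pancreas was not detectable at this depth.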
